A study of Mus musculus with 6 samples.

Results

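The genes that hold the cell cycle in check were examined in mouse long-term hematopoietic stem cells, or LT-HSCs, the rare bone marrow cells that sustain blood formation. The set holds 10 genes, chosen by name but with earlier results of these data known. They are the Cip/Kip inhibitors Cdkn1a, Cdkn1b and Cdkn1c, the INK4 inhibitors Cdkn2a, Cdkn2b, Cdkn2c and Cdkn2d, and the pocket proteins Rb1, Rbl1 and Rbl2. Each matched 1 row of the 47561 in every count table. LT-HSCs had been sorted from mouse bone marrow, giving 3 control libraries with the genotype label WT and 3 libraries titled Piezo1 KO. Piezo1 encodes a calcium-permeable channel that opens under mechanical force. For KO replicates 2 and 3 the genotype field names another Piezo gene than the title, so groups follow the titles. How the gene was deleted, in which cells, the sort gate and the age and number of the mice are not given in the sources used here. Nothing in the labels ties a library to a mouse of its own, so the p-values below measure the spread between these libraries, which may be technical.

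A cell enters the division cycle when cyclin-dependent kinases (CDKs), bound to cyclins, phosphorylate the pocket proteins and so release E2F transcription factors. The INK4 proteins bind CDK4 and CDK6, the partners of D-type cyclins, while the Cip/Kip proteins bind assembled cyclin-CDK complexes, those of CDK2 above all. Most adult LT-HSCs are quiescent, and p57, p27 and the pocket proteins are known from mouse genetics to help keep them so.

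The libraries held between 59435258 and 64653956 counts. Piezo1 itself stood at 17.0, 7.02 and 24.3 CPM (counts scaled to the library total, TMM-adjusted) in control replicates 1 to 3 and at 4.28, 7.99 and 9.46 CPM in the KO libraries. Control replicate 2 thus lay below 2 KO libraries, and every direction given below rests on the labels. All 10 markers of LT-HSCs that were looked up had counts, with summed levels of 853 to 1130 CPM in control and 760 to 922 CPM in KO. Of the LT-HSC markers, Ly6a (Sca-1), a surface antigen of mouse stem cells, was lower in all KO libraries (72.8 to 207 CPM) than in all control libraries (284 to 373 CPM), and Kit was higher (293 to 344 against 106 to 226 CPM). Procr, another of them, had means of 13.8 CPM in KO and 48.7 CPM in control. Its groups overlapped, at 4.99 to 26.7 CPM in KO and 22.6 to 67.1 CPM in control. The remaining listed LT-HSC markers overlapped as well.

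Markers of other cells differed between libraries. All 7 erythroid markers had counts, and their sum was 8220 to 26200 CPM in KO and 2550 to 7560 CPM in control, with 4 of the 7, the globin genes, higher in every KO library. The erythroid markers Car1 and Klf1 had lower means in KO, at 1116 against 2593 CPM and 84.1 against 134 CPM, with overlap between groups. The 6 megakaryocyte markers summed to 1670 to 2490 CPM in KO and 772 to 1040 CPM in control. Of these, 4 were higher in every KO library: Pf4, Itga2b, Gp1bb and Vwf. The 4 T and NK markers summed to 246 to 258 CPM in KO and 129 to 209 CPM in control, most of it from Nkg7. The sums of multipotent progenitor, monocyte and B lineage markers overlapped between the groups. The 7 granulocyte markers summed to 11600 CPM in control replicate 3, against 18.0 and 57.2 CPM in the other control libraries and 6.05 to 1060 CPM in KO. The 4 stromal and endothelial markers summed to 0 to 0.103 CPM in control and 0.134 to 2.26 CPM in KO. Of these, Lepr and Cdh5 were at 0 in all 6 libraries, and Cxcl12 was at 0 in control and at 0.134, 0.266 and 1.81 CPM in KO. In bulk RNA a change in the mix of cells and a change in RNA per cell cannot be told apart. The part of these markers in the results below was not tested.

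The LT-HSC libraries held transcripts of 8 of the 10 brakes, each at 1 CPM or more in all 6 libraries. These are bulk levels, and which cells in a library held the transcripts was not tested. Levels of different genes were compared as CPM per kb of the principal transcript. Cdkn2d, which encodes the INK4 protein p19-INK4d, was the highest, with 32.8 to 67.1 CPM per kb across the libraries and a mean of 54.5. Rbl1, which encodes the pocket protein p107, came next with a mean of 19.3 CPM per kb (range 13.3 to 23.9), then Rbl2, which encodes p130, with 8.03 (range 5.55 to 11.4). In 6 of 6 libraries Cdkn2d was above Rbl1 and Rbl1 above Rbl2.

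Below these the order was less firm. Cdkn1b, which encodes p27, averaged 5.07 CPM per kb, Cdkn1c, which encodes p57, 4.19, and Cdkn2c, which encodes p18-INK4c, 3.82. Cdkn1b was above Cdkn1c in 4 of 6 libraries and Cdkn1c above Cdkn2c in 3 of 6. Rb1, the gene of the retinoblastoma protein, averaged 2.18 CPM per kb and Cdkn1a, which encodes p21, 1.69, with Rb1 above Cdkn1a in 3 of 6 libraries. Rbl2 was above Cdkn1b in 6 of 6 libraries by the principal transcript but in 2 of 6 when the length of all annotated exons was used, an alternative chosen after the data were seen.

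**Figure D1:**
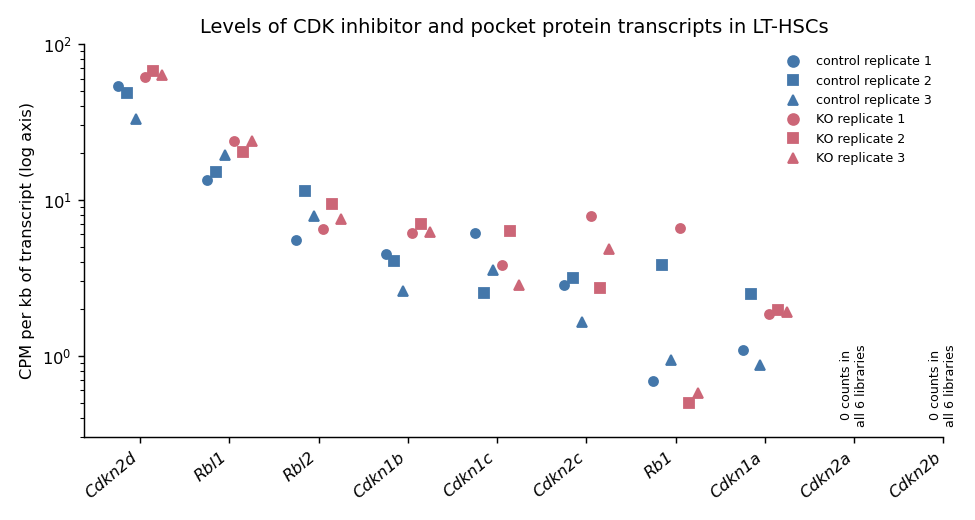
Level of each gene in each library, in CPM per kb of the principal transcript on a log axis, with genes ordered by their mean. Cdkn2d lies highest, at 32.8 to 67.1 CPM per kb, Rb1 is spread from 0.496 to 6.57, and Cdkn2a and Cdkn2b had 0 counts in all 6 libraries.

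Cdkn2a and Cdkn2b had 0 counts in every library. Cdkn2a encodes both p16-INK4a and, from another first exon, p19-ARF, an activator of p53, and Cdkn2b encodes p15-INK4b. The genes are neighbours on chromosome 4 (89274471 to 89294653 and 89306299 to 89311039, GRCm38, GENCODE M21), and Gm12610, annotated nearby and named after its value was seen, was also at 0. A count of 0 allows up to 3 counts per library, or 0.0440 to 0.0539 CPM, for counting error only. A 0 in these tables needs care, because 203 rows were at 0 in 1 library and at 100 counts or more in each of the other 5. For Cdkn2a and Cdkn2b the 0 stood in 6 of 6 libraries. All tables share the same rows, and whether a fault common to them set these genes to 0 was not tested. Mtap, a methionine salvage enzyme gene beside them, was counted at 115 to 163 CPM in control and 71.6 to 90.4 CPM in KO.

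In the comparison of KO with control, 0 of the 8 tested members passed an adjusted p under 0.05 in edgeR's quasi-likelihood test, as did 0% of the 16022 genes tested. DESeq2 called 0 of the 4 members for which it gave an adjusted p, and 5.68% of the 9173 genes that had one. Of the 8, 7 had a positive log2 fold change, where 52.2% of all tested genes did, and their median was 0.50 against 0.03 for all tested genes. Cdkn1b, Cdkn2d and Rbl1 were higher in each KO library than in any control library. That is 3 of 8 members, where 10.7% of all tested genes had KO above control without overlap and 8.76% had KO below. At an unadjusted p under 0.05 there were 2 members higher, Cdkn1b and Rbl1, and 0 lower, against 5.44% and 5.59% of all tested genes. The count of 2 became 0 without control replicate 2, KO replicate 1 or KO replicate 3, and 1 (Rbl1) without control replicate 3. Without control replicate 1 it was 2, Cdkn2d and Cdkn1b, and without KO replicate 2 it was 2, Cdkn2c and Rbl1. By limma-voom it was 3, with Cdkn2d added. Over all genes at that threshold, 808 were higher and 573 lower of 17121 without control replicate 1. These were 1207 and 963 of 16912 without control replicate 2, and 1339 and 1299 of 17038 without control replicate 3. They were 753 and 858 of 16921 without KO replicate 1, and 692 and 656 of 16832 without KO replicate 2. Without KO replicate 3 they were 562 and 584 of 16886, and by limma-voom 1209 and 1022 of 16022.

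Cdkn1b stood at 20.5, 18.4 and 11.8 CPM in control replicates 1 to 3 and at 27.7, 31.8 and 28.2 CPM in KO replicates 1 to 3. The KO libraries lay close together, and the lowest of them was above the highest control library. The KO mean was 29.2 ± 2.27 CPM and the control mean 16.9 ± 4.58 CPM (SD, n = 3). The log2 fold change was 0.79 (SE 0.30), with an edgeR adjusted p = 0.403. Control replicate 3, the library with the highest granulocyte marker sum, was the lowest, and without it the log2 fold change was 0.59. The granulocyte markers also summed to 419 and 1060 CPM in KO replicates 2 and 3, and their part in Cdkn1b was not tested.

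The other Cip/Kip genes overlapped between the groups. Cdkn1c, an imprinted gene expressed from the maternal copy, stood at 11.7, 4.82 and 6.74 CPM in control and at 7.25, 11.9 and 5.37 CPM in KO. High and low libraries occurred in both groups, and the log2 fold change was 0.08 (SE 0.55; edgeR adjusted p = 0.983). It turned to -0.30 without KO replicate 2, to -0.20 without control replicate 2 and to -0.01 without control replicate 3, and was 0.50 without control replicate 1. For Cdkn1a, the p53 target, control replicates 1 to 3 stood at 2.26, 5.20 and 1.80 CPM and KO replicates 1 to 3 at 3.86, 4.07 and 3.94 CPM. Control replicate 2 was above all KO libraries and the other control libraries were below them. The log2 fold change was 0.36 (SE 0.70; edgeR adjusted p = 0.918), 0.94 without control replicate 2, and 0.18 and 0.08 without control replicates 1 and 3. Genes on the other strand share exonic bases with both: Gm44732 shares 625 with Cdkn1c, and AC167363.2 shares 273 with Cdkn1a. The part of these overlaps in the Cdkn1c and Cdkn1a values was not tested.

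Within the Cip/Kip group, p27 transcripts made up 51.5 ± 5.35% of the summed CPM per kb in KO and 39.9 ± 4.03% in control (SD, n = 3 each). The KO shares ran from 46.0% to 56.7% and the control shares from 36.9% to 44.5%, without overlap. With the length of all annotated exons they overlapped, since control replicate 2, at 51.4%, was above KO replicate 2. The share of p57 transcripts was 25.9% to 41.2% in KO and 27.9% to 52.3% in control, and that of p21 12.9% to 17.4% and 9.27% to 27.5%, both overlapping. The summed level of the 3 genes overlapped, with 10.9 to 15.2 CPM per kb in KO and 6.99 to 11.7 in control.

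**Figure D2:**
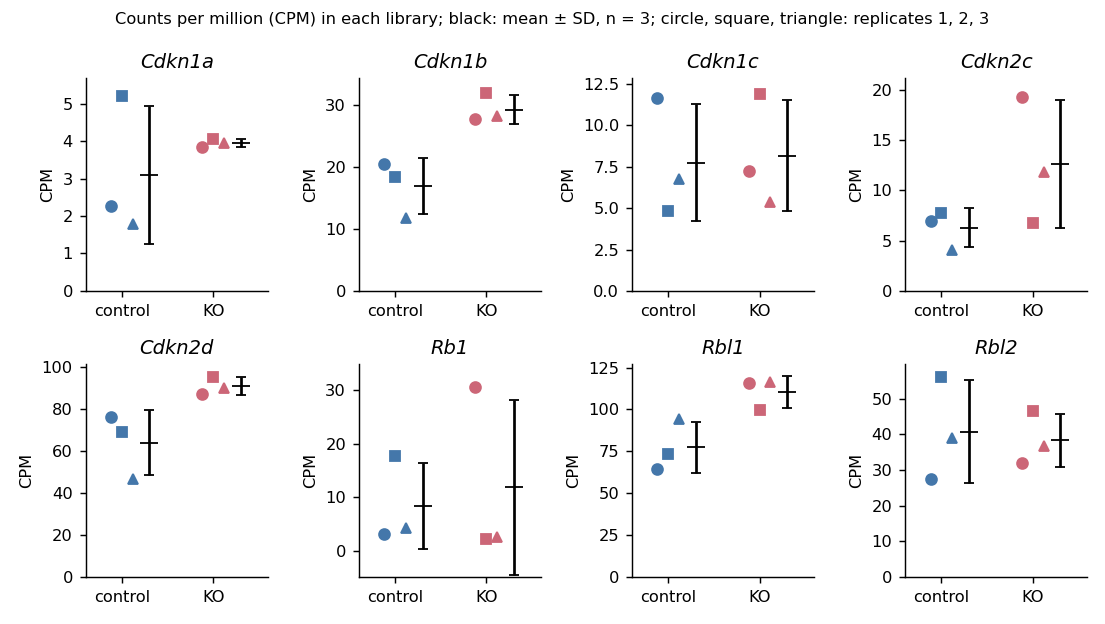
CPM of the 8 detected genes in each library, with the mean and SD of each group (n = 3) beside the points. Cdkn1b, Cdkn2d and Rbl1 have the 3 KO libraries above the 3 control libraries, while Rb1 has 1 high library in each group, at 17.6 and 30.6 CPM.

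Among the INK4 genes, Cdkn2d stood at 76.4, 68.9 and 46.7 CPM in control and at 87.4, 95.5 and 90.1 CPM in KO. The groups did not overlap, and control replicate 3 was again the lowest. The KO mean was 91.0 ± 4.08 CPM and the control mean 64.0 ± 15.4 CPM (SD, n = 3), a log2 fold change of 0.51 (SE 0.22; edgeR adjusted p = 0.462), which was 0.33 without control replicate 3. Cdkn2c stood at 6.97, 7.78 and 4.08 CPM in control and at 19.3, 6.71 and 11.9 CPM in KO. Here KO replicate 2 fell among the control values, and KO replicate 1 was the highest. The log2 fold change was 1.01 (SE 0.53; edgeR adjusted p = 0.545), and 0.54 without KO replicate 1. Cdkn2d made up 88.7% to 96.1% of the INK4 transcripts per kb over all 6 libraries, with the rest from Cdkn2c. The INK4 sum was 68.1 to 69.8 CPM per kb in KO and 34.5 to 56.5 in control, without overlap. Since it is mostly Cdkn2d, this is no separate result.

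Of the pocket protein genes, Rbl1 stood at 64.5, 73.3 and 94.1 CPM in control and at 116, 99.4 and 116 CPM in KO. The groups did not overlap, although control replicate 3 and KO replicate 2 lay near each other. The KO mean was 110 ± 9.51 CPM and the control mean 77.3 ± 15.2 CPM (SD, n = 3), a log2 fold change of 0.51 (SE 0.20; edgeR adjusted p = 0.407). For Rbl1 control replicate 3 was the highest control library, the reverse of its place for Cdkn1b and Cdkn2d, and the log2 fold change without it was 0.68. Rbl2 stood at 27.3, 56.0 and 38.8 CPM in control and at 31.8, 46.5 and 36.8 CPM in KO, with all KO values inside the control range. Its log2 fold change was -0.09 (SE 0.31; edgeR adjusted p = 0.962), 0.19 without control replicate 2, 0.02 without KO replicate 1 and -0.31 without control replicate 1. Aktip overlaps 693 exonic bases of Rbl2 on the other strand, and Gm45464 overlaps 892. With no stated strand their reads cannot be told apart there. Aktip held 1.42 to 24.9 CPM.

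Cdkn1b and Rbl1 were the members with an unadjusted p under 0.05 over all 6 libraries, so their promoters are shown, as the 250 bases before the RefSeq start on the gene's strand (build GRCm38.p6). Both strands were searched for the E2F words TTTCCCGC, TTTCGCGC, TTTGCCGC and TTTGGCGC, for CCAAT and for the GC box GGGCGG, and capitals mark the matches. The first is Rbl1 at chr2:157204535-157204784 on the minus strand, and the second Cdkn1b at chr6:134920151-134920400 on the plus strand.
Rbl1: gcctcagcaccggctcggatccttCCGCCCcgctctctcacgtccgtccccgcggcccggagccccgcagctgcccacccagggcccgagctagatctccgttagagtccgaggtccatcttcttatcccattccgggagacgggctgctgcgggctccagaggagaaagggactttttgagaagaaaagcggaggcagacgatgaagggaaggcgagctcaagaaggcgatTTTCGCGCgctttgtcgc
Cdkn1b: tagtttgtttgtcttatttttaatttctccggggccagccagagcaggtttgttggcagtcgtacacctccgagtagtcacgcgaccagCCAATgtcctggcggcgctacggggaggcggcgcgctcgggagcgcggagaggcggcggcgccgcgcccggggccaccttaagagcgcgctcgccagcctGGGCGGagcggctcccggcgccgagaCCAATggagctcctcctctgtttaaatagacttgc
Rbl1 held TTTCGCGC between 18 and 11 bases before its start. Any E2F word occurred in 2.26% of the 32851 promoter windows of 300 bases in the RefSeq table, and in those of 2 of the 8 members with an entry, Rbl1 and Cdkn2a. Cdkn1b held CCAAT at 161 to 157 and at 35 to 31 bases before its start, a word found in 37.4% of windows and in those of 4 of 8 members (Cdkn1b, Cdkn2a, Cdkn2c and Cdkn2d). The GC box occurred in a window of each of the 8 members, against 35.7% of all windows. Members were counted by gene, with a match in any window of the gene, while the percentages are per window. The 8 members have 11 windows, so the counts and the percentages are unlike measures and cannot be compared directly. No match overlapped another in the sequences shown. A match is a description of the letters and does not show that a factor binds.

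Rb1 had the widest spread of the 8. It stood at 3.20, 17.6 and 4.37 CPM in control replicates 1 to 3 and at 30.6, 2.31 and 2.66 CPM in KO replicates 1 to 3, so that 1 library of each group was far above the other 4. How the count tables were made is only partly known, and whether that affected these values was not tested. The highest library was 13.3-fold above the lowest. The high values rested on 1204 and 1825 counts and the low ones on 139 to 243. The SD within groups was 1.63 on the log2 scale, larger than in 96.6% of the 3736 tested genes with a mean level within 2-fold of that of Rb1. Among 10814 tested genes averaging at least 5 CPM, 1 had control replicate 2 and KO replicate 1 both at least 3-fold above the other 4 libraries, and that was Rb1 itself. This pattern was counted after the values of Rb1 had been seen. The pair of libraries was taken from Rb1, so Rb1 met the rule by construction. Other pairs were not counted, so the count does not measure how unusual such a pattern is.

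The direction of Rb1 depended on which high library was present. The log2 fold change was 0.50 (SE 1.14; edgeR adjusted p = 0.933), -1.77 without KO replicate 1 and 1.63 without control replicate 2. It was -0.20 by limma-voom and -0.33 with the replicate number as a block, and DESeq2 gave no p-value for it. Lpar6, a receptor gene inside an Rb1 intron on the other strand, shares 408 annotated exonic bases with Rb1 and Rcbtb2 shares 488. Lpar6 stood at 92.8, 64.9 and 43.5 CPM in control and at 29.7, 68.9 and 51.8 CPM in KO, and Rcbtb2 45.4 to 84.8 CPM over all libraries. The part of these overlaps in the Rb1 values was not tested. The share of Rb1 in the pocket protein transcripts was 12.5% in control replicate 2 and 17.9% in KO replicate 1, and 1.63% to 3.53% in the other 4 libraries. Rbl1 made up 49.9% to 74.8% and Rbl2 17.6% to 37.6%. The sum of the pocket protein transcripts was 30.4 to 36.8 CPM per kb in KO and 19.5 to 30.2 in control. The groups did not overlap, but the lowest KO and highest control sums lay close.

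**Figure D3:**
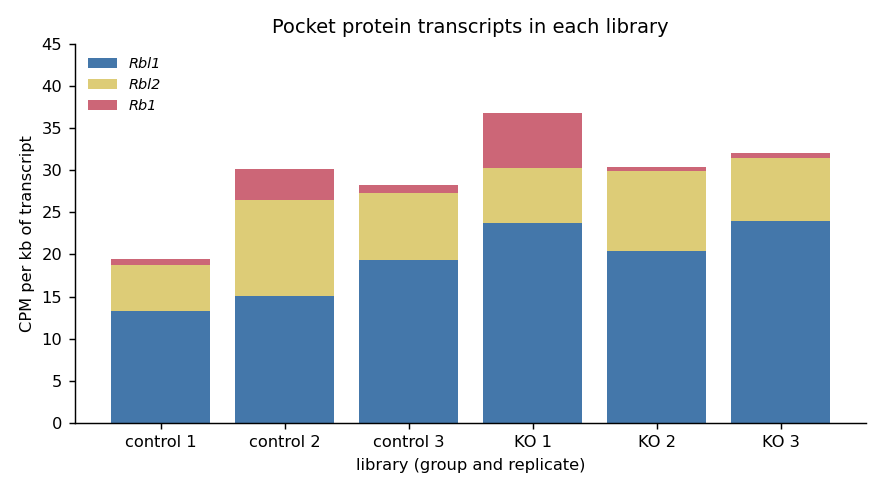
Summed level of the pocket protein transcripts in each library, in CPM per kb of the principal transcript, stacked by gene from 0. Rbl1 is the largest part in all 6 libraries, and Rb1 is visible mainly in control replicate 2 and KO replicate 1.

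**Figure D4:**
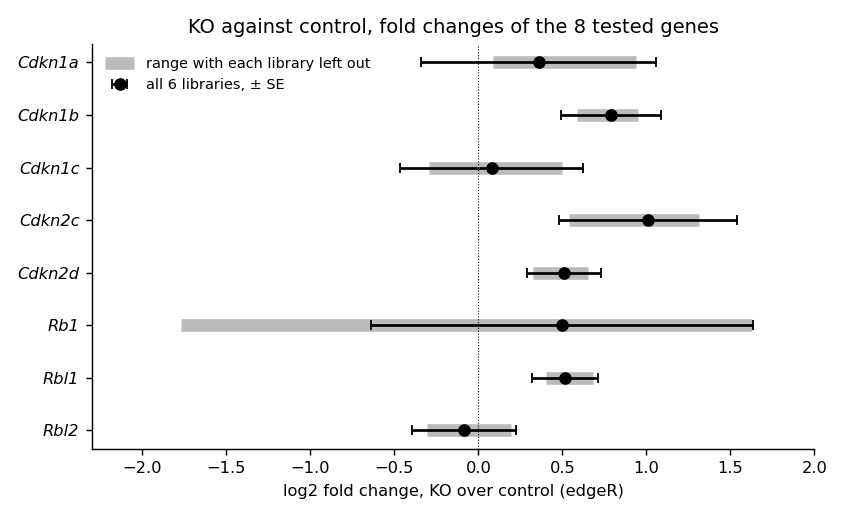
Log2 fold change of KO over control for the 8 tested genes, with its SE from edgeR (black) and the range when each library is left out (grey). The ranges of Cdkn1c, Rb1 and Rbl2 cross 0, and that of Rb1 runs from -1.77 to 1.63.

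The kinases and cyclins that the brakes act on were read from lists of the same pathway, and 0 of their genes passed the adjusted threshold, as for all genes. Counts below are at an unadjusted p under 0.05 in edgeR, where 5.44% of all tested genes were higher and 5.59% lower. Of all tested genes, 10.7% had KO above control without overlap and 8.76% had KO below. Most genes named from a list were picked by their p-values in these same data, so their separation is no independent result. Of the D-type cyclins with CDK4 and CDK6, 5 of 5 were tested, 1 was higher and 1 lower. Cdk4 stood at 1141, 873 and 871 CPM in control and at 689, 570 and 558 CPM in KO, while Cdk6 stood at 713, 490 and 652 CPM in control and at 880, 803 and 1056 CPM in KO. The pair of INK4 targets thus lay on opposite sides, each without overlap, with log2 fold changes of -0.67 (SE 0.18; edgeR adjusted p = 0.277) and 0.56 (SE 0.19; edgeR adjusted p = 0.375). Of cyclins E and A with CDK2 and the CDK-activating kinase, 1 of 8 was higher and 2 lower. Log2 fold changes were negative for 7 of the 8, with a median of -0.51 against 0.03 for all tested genes. Ccne1, which encodes cyclin E1, had a KO mean of 26.3 ± 6.59 CPM and a control mean of 44.6 ± 9.15 CPM (SD, n = 3). Ccna2, which encodes cyclin A2, had means of 263 ± 41.3 and 188 ± 29.4 CPM (SD, n = 3), and its groups overlapped.

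The E2F and DP factors include those that pocket proteins bind and others that they do not. Among the 10, 2 were higher and 1 lower, against 5.44% and 5.59% of all tested genes. E2f8, a repressive E2F that acts without pocket proteins, stood at 16.7, 14.0 and 45.3 CPM in control and at 77.1, 55.6 and 63.6 CPM in KO. Tfdp2, an E2F partner, had a KO mean of 96.6 ± 10.1 CPM and a control mean of 58.9 ± 17.5 CPM (SD, n = 3). For E2f6, an E2F that binds no pocket protein, these means were 36.5 ± 7.74 and 53.6 ± 7.45 CPM. E2f2 and E2f7 were listed at 0 in control replicate 1 only, with 6.43 to 11.1 CPM of E2f2 in the other 5 libraries and 3.52 to 14.4 CPM of E2f7. Both are named after their values were seen, outside the naming rule.

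The MuvB proteins join Rbl1 or Rbl2 with E2F4 into the repressive DREAM complex, and later join Mybl2 and Foxm1 in activating mitotic genes. Of 8 such genes, 2 were higher and 1 lower, against 5.44% and 5.59% of all tested genes. Mybl2 stood at 6.52, 7.36 and 5.37 CPM in control and at 18.5, 17.2 and 23.8 CPM in KO, a log2 fold change of 1.63 (SE 0.35; edgeR adjusted p = 0.255). The KO mean of Foxm1 was 23.6 ± 4.99 CPM and its control mean 13.1 ± 2.47 CPM (SD, n = 3). Lin37, a MuvB subunit, had means of 27.1 ± 7.63 and 51.1 ± 9.70 CPM, and none of these 3 genes overlapped between the groups. Of 21 genes known as targets of E2F or DREAM, 2 were higher, Top2a and Mki67, and 0 lower, and the median log2 fold change of the 21 was 0.14. Mki67 stood at 80.5, 118 and 186 CPM in control and at 301, 237 and 278 CPM in KO. As for Rbl1, control replicate 3 was the highest control library, whereas it was the lowest for Cdkn1b and Cdkn2d.

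Upstream of the brakes, 3 of 20 tested transcriptional regulators were higher and 1 lower, against 5.44% and 5.59% of all tested genes. Trp53, which encodes p53, had a KO mean of 202 ± 24.7 CPM and a control mean of 327 ± 77.0 CPM (SD, n = 3). For Mdm4, a p53 inhibitor, these means were 103 ± 11.0 and 74.5 ± 8.64 CPM. Bmi1, the Polycomb gene known to repress Cdkn2a, stood at 17.9, 25.2 and 40.4 CPM in control and at 47.8, 52.1 and 53.9 CPM in KO. Zbtb17, which encodes the transcription factor Miz-1, had means of 20.0 ± 1.70 CPM with KO and 9.28 ± 3.75 CPM in control (SD, n = 3). Of 17 p53 targets other than Cdkn1a, 0 were higher and 0 lower, with a median log2 fold change of -0.10. Of 10 genes of p27 turnover, 0 were higher and 0 lower. Among them Skp2, which marks p27 for degradation, had a KO mean of 19.0 ± 4.25 CPM and a control mean of 21.4 ± 4.74 CPM (SD, n = 3), and is named here outside the naming rule.

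Of the genes beside the brakes, 3 of 5 tested were lower and 0 higher, against 5.59% and 5.44% of all tested genes. In the imprinted cluster around Cdkn1c, Slc22a18 stood at 16.9, 23.9 and 10.8 CPM in control and at 3.59, 6.21 and 3.74 CPM in KO, a log2 fold change of -1.93 (SE 0.47; edgeR adjusted p = 0.264). Phlda2, of the same cluster, stood at 21.4, 25.5 and 22.0 CPM in control and at 11.2, 18.3 and 9.93 CPM in KO. Kcnq1ot1, the long non-coding RNA made from the paternal copy of the cluster, overlapped between groups, with 104 to 265 CPM in control and 168 to 256 CPM in KO, as did Cdkn1c. Whether Cdkn1c differs from its neighbours in its response was not tested.

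**Figure D5:**
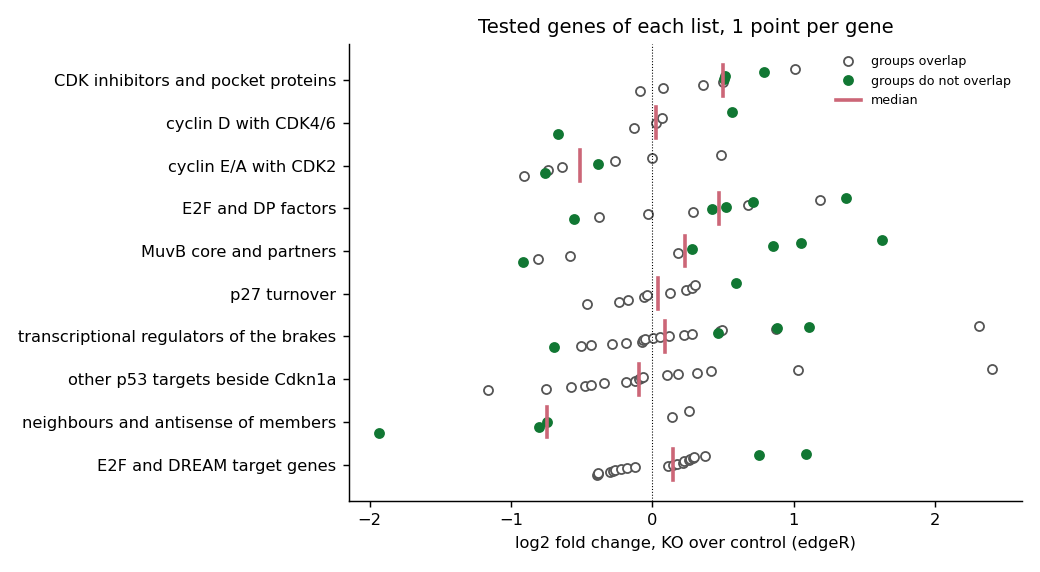
Log2 fold change of KO over control for each tested gene of each list, 1 point per gene, with the median of each list as a red bar. Filled points are genes whose groups do not overlap, which include 3 of the 8 brakes.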

How the data were processed

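RNA was extracted with TRIZOL and made into libraries with a TruSeq kit, per the labels' protocols. The authors deposited 1 table of unnormalized whole-number counts for each library. The submitters' processing notes name cutadapt 1.16.5, HISAT2 2.1, featureCounts 1.6.4 and mm10, with no role or order. Strand and the treatment of multi-mapping reads are not given in the sources used here. Of 47561 rows, 2046 carry identifiers of an assembler's kind, so some counts may derive from assembled transcripts, which could set a gene to 0.

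The test was made with edgeR 4.0.16 under R 4.3.3 (filterByExpr, TMM scaling, quasi-likelihood F test over all 6 libraries, Benjamini-Hochberg over 16022 genes, two-sided). The common coefficient of variation was 0.755. SEs were derived from the test. Steps were tested on simulated data. Lengths came from GENCODE M21. Members, gene lists and tests were chosen with earlier results of these data known. Named genes were the members, Piezo1 and up to 4 per list by smallest p. Marker genes, genes that overlap a member, and E2f2, E2f7, Gm12610 and Skp2 are named outside that rule. Alternatives used other scalings and filters, DESeq2 1.42.0, limma-voom (limma 3.58.1), a replicate block and each library left out.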

Additional observations from a re-analysis of the deposited data

How the results depend on the processing

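No alternative brought a member past the adjusted threshold, and of 102 alternative fold changes of members 8 changed sign, all of Cdkn1c, Rb1 or Rbl2. With each library left out the log2 fold change ran from -0.30 to 0.50 for Cdkn1c, from -1.77 to 1.63 for Rb1 and from -0.31 to 0.19 for Rbl2. Cdkn1c was -0.20 and -0.01 without control replicates 2 and 3, and Rbl2 0.02 without KO replicate 1. For Rb1 limma-voom gave -0.20. The replicate number as a block gave -0.33 for Rb1 and changed no call. Same-numbered libraries deviated together with correlations of 0.06, 0.01 and 0.05, against -0.08 to 0.03 for libraries of different number. The labels do not say what a shared number stands for, and values this small cannot exclude a pairing. Over all alternatives the adjusted p ran from 0.188 to 0.725 for Cdkn1b, from 0.164 to 0.748 for Rbl1 and from 0.251 to 0.779 for Cdkn2d. Over all genes, 192 were called higher and 329 lower by DESeq2, where edgeR called 0, and 1 was called lower when 5 CPM were required in 3 libraries. With each library left out, 0 to 1 were called higher. Members with KO above control and no overlap numbered 3 to 4 with a library left out, an alternative added after the data were seen, while the share of all tested genes with that pattern was 13.8% to 19.7%, against 10.7% with all 6. Leaving out a library cannot end such a separation, so this says nothing of its stability.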
